A study of Musca domestica with 4 samples.

Results

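The 200 steadiest genes in the house fly (*Musca domestica*) transcriptome were described across 3 strains, as candidates for stable reference genes. A gene was taken when its count, corrected for library size, differed least between all 4 RNA-Seq libraries. The libraries came from adult female flies of ALHF, a strain from Alabama with high resistance to insecticides, and of the susceptible strains aabys, which carries a visible recessive marker on each autosome, and CS. ALHF had 2 libraries and aabys and CS had 1 each, and per the methods of the study each RNA sample was made from 20 whole female flies 3 days after emergence. All strains were reared at 27 °C on the same diet, and the labels name no exposure of the sampled flies to an insecticide. Per the study's methods the strains differ in history: ALHF is kept under repeated selection with permethrin, a pyrethroid insecticide, and CS is a wild type strain long held in the laboratory. Whole insects hold every tissue, so that a change in the share of a tissue and a change in RNA per cell cannot be told apart. The reference sequences were the coding regions of a transcriptome assembled from ALHF reads alone, and the part that this played in the counts of the other strains was not tested.

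The table held 6159 genes, of which 4071 had at least 100 counts in every library. The 100 genes with the highest level per length, all of which passed this minimum, were left out, and 3971 genes remained. These are called eligible genes below. Counts were divided by a size factor, the median ratio of a library to the geometric mean of all libraries over the 5916 genes above 0 in every library. The 200 genes with the smallest standard deviation (SD) of the log2 scaled count over the 4 libraries were then chosen. Since every count of every library entered the choice, all differences between libraries in these genes are given as a description and none was tested.

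A reference gene is a gene whose RNA is assumed to be present at the same amount in every sample, so that other genes can be expressed relative to it. In qRT-PCR the choice of that gene sets the zero of every comparison: any change in the reference gene is passed on, with its sign turned round, to each gene divided by it. Genes for actin, ribosomal proteins, elongation factors and other parts of the basic machinery of the cell are customary choices. In RNA-Seq the same task falls to a size factor, which rests on many genes instead of a single gene.

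The qRT-PCR of the study used an actin gene, ALHF_04132.g2678, as its reference. Per the methods it was chosen because preliminary qRT-PCR had found its expression to be constant across the strains. That qRT-PCR was not analysed here. The primers of this actin gene are shown because they define the amplicon against which expression was set. They are the only designed sequences that bear on the comparison below, since none of the 200 genes had a primer pair in the list of the study.
forward primer of actin: atgaggctcagagcaaacgtggta
reverse primer of actin: agtcatcttctcgcgattggcctt

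The total count was 10112769 and 5523826 in ALHF, 15085758 in aabys and 12440784 in CS. The size factors were 0.808 and 0.470 in ALHF, 1.72 in aabys and 1.56 in CS. ALHF replicate 2 was thus the shallowest library, and it set the minimum most often: 1737 of the 6159 genes had under 100 counts there. The other ALHF library had 909 such genes, aabys 677 and CS 1043. CS was the library farthest from the gene's mean in 2250 of the 3971 eligible genes (56.7%). Among the 200 steadiest genes the same was true of 52 genes (26.0%). Of the eligible genes, aabys was farthest in 319 (8.03%), ALHF replicate 1 in 742 (18.7%) and ALHF replicate 2 in 660 (16.6%). The mean holds ALHF 2 times, and the part that this played was not tested. Over the eligible genes the median absolute log2 difference between aabys and CS was 0.659. Between aabys and the ALHF replicates it was similar, at 0.682 and 0.628.

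The SD of the 200 genes ran between 0.020 and 0.20 on the log2 scale, with a median of 0.16, against a median of 0.69 and a highest value of 4.42 over the eligible genes. In linear terms, the highest scaled count of a gene was between 1.03 and 1.40 times its lowest, with a median of 1.28, whereas the median over the eligible genes was 2.89. The coefficient of variation was 10.8% at the median of the 200 genes and 46.0% at the median of the eligible genes. Within the 200 genes, 13 stayed within 1.1-fold from the lowest to the highest library, 49 stayed within 1.2-fold and all 200 within 1.5-fold. A total of 351 eligible genes (8.84%) stayed within 1.5-fold and 1054 (26.5%) within 2-fold, so that the 200 genes were the end of a continuous distribution and no gap set them apart.

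The steadiest gene, ALHF_03795.g2401, had scaled counts of 1218 and 1256 in ALHF, 1238 in aabys and 1253 in CS (SD of the log2 value 0.020, from 984, 590, 2134 and 1949 counts). The next, ALHF_04209.g2742, had scaled counts of 1286 and 1258 in ALHF, 1294 in aabys and 1303 in CS (SD 0.022). In the first gene both susceptible strains lay between the ALHF libraries, and in the second both lay above them, with 1.04-fold from the lowest library to the highest. Both SDs were under the SD that counting alone would give (0.044 and 0.043), so that the libraries cannot be ordered. No annotation was at hand for either gene. ALHF_01673.g937, whose best Drosophila match is CG7739, had 1151 and 1102 in ALHF, 1145 in aabys and 1174 in CS (SD 0.038). The fifth gene, ALHF_04201.g2735, had scaled counts of 3685 and 3652 in ALHF, 3496 in aabys and 3720 in CS (SD 0.040).

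**Figure D1:**
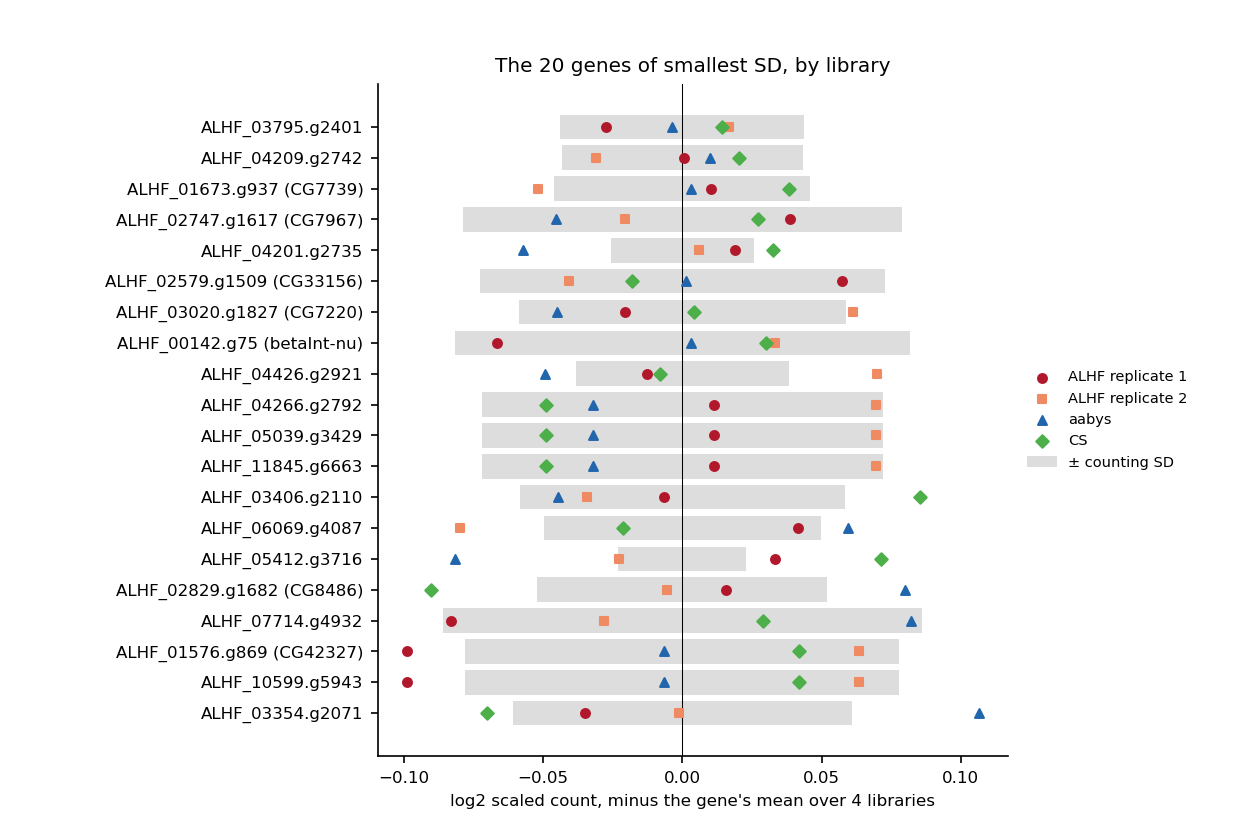
The 20 genes of smallest SD, steadiest at the top, with the Drosophila match in parentheses where one was at hand. Each point is the log2 scaled count of 1 library minus the gene's mean over the 4 libraries (x axis), and the grey bar is ± the SD that counting alone would give. In the first gene, with an SD of 0.020, all 4 points lie within the bar.

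Counting alone gives a spread that depends on the counts. The counting SD, taken as the SD that Poisson counts of these sizes would have on the log2 scale, had a median of 0.056 over the 200 genes. In 13 genes the SD was at or under the counting SD, and these were the only such genes among the 3971 eligible ones. For them the libraries cannot be ordered at this depth. The SD of the other genes was above the counting SD, in some by little, as in ALHF_03406.g2110 (0.0592 against 0.0584). With 4 values to a gene, an SD above the counting SD does not by itself show a spread beyond counting, and no test of this was made. The median ratio of the SD to the counting SD was 2.63 in the 200 genes and 11.2 in the eligible genes. Where counts were high, even a small SD could exceed counting error. ALHF_05412.g3716, with scaled counts of 4646 and 4469 in ALHF, 4290 in aabys and 4770 in CS, had an SD of 0.067 against a counting SD of 0.023, and ALHF_04201.g2735 had an SD of 0.040 against 0.026.

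Of the other genes among the 20 steadiest, the following 5 had neither an annotation at hand nor a copy of identical values. ALHF_04426.g2921 had scaled counts of 1598 and 1692 in ALHF, 1558 in aabys and 1603 in CS (SD 0.050). ALHF_03406.g2110 had 703 and 690 in ALHF, 685 in aabys and 749 in CS (SD 0.059), and was highest in CS. ALHF_06069.g4087 had 1005 and 924 in ALHF, 1018 in aabys and 962 in CS (SD 0.064), with CS between the ALHF libraries. ALHF_07714.g4932 had 309 and 321 in ALHF, 347 in aabys and 334 in CS (SD 0.071), with both ALHF libraries below the others and an SD under its counting SD of 0.086. ALHF_03354.g2071 had 630 and 645 in ALHF, 695 in aabys and 615 in CS (SD 0.076), and was highest in aabys.

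The choice did not follow level or length closely. The level per length (in ppm, the share of a gene in the sum of count per length over all genes, times 1000000, averaged over the 3 strains) had a median of 67.1 ppm in the 200 genes and 67.0 in the eligible genes, and the coding length a median of 1479 nucleotides against 1563. When the eligible genes were put into 4 equal bins by mean scaled count, the 200 genes fell 55, 51, 57 and 37 into the bins from low to high. By coding length they fell 71, 35, 49 and 45, so that the shortest bin, of up to 1071 nucleotides, held the most. The rule asks for at least 100 counts, and the gene with the smallest count had exactly that in ALHF replicate 2, ALHF_08870.g5454 (127 and 100 counts in ALHF, 311 in aabys and 259 in CS).

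Annotation was at hand for 58 of the 200 genes (29.0%) and for 1193 of the eligible genes (30.0%), and 57 of the 58 had a Drosophila match. The functions below are those known for the Drosophila or human counterpart and were not measured in the house fly. By general function, 13 of the 58 were annotated to metabolism, 12 to general, 8 to intra-cellular processes, 7 to regulation, 3 to extra-cellular processes, 1 to information and 1 to other functions, and 13 had no class. As a share of the eligible genes of a class, this was 5.44% for metabolism, 6.12% for general, 5.33% for intra-cellular processes, 3.98% for regulation, 11.1% for extra-cellular processes and 1.82% for information, against 4.86% over all annotated eligible genes. These shares rest on few genes and were not tested.

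Ubiquitin is the small protein that marks others for destruction or relocation. The list of enzymes that attach or remove it gave 4 of its 18 eligible genes (22.2%), against 4.86% of all annotated eligible genes. This share rests on few genes and was not tested. The list had a median SD of 0.44 and a highest SD of 1.77. It was made by words in the annotation and was not limited to such enzymes, since Pros54, for example, also stood in the proteasome list. The match of CG7220, a ubiquitin-conjugating enzyme (ALHF_03020.g1827), had scaled counts of 676 and 715 in ALHF, 664 in aabys and 687 in CS (SD 0.046). A further conjugating enzyme, the match of ben (ALHF_02850.g1701), had 640 and 611 in ALHF, 646 in aabys and 752 in CS (SD 0.13). CG5604 (ALHF_00936.g519) encodes a HECT ubiquitin ligase, and its scaled counts were 2804 and 3116 in ALHF, 2783 in aabys and 3112 in CS (SD 0.091). CYLD (ALHF_02654.g1551), which removes ubiquitin chains, had 1419 and 1760 in ALHF, 1323 in aabys and 1527 in CS (SD 0.18). CS lay between the ALHF libraries in CG7220, CG5604 and CYLD, while in ben both susceptible strains lay above them. The SD of CG7220 was under its counting SD of 0.059, so that its libraries cannot be ordered.

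The proteasome is the protease that degrades proteins marked with ubiquitin. It gave 2 of its 11 eligible genes, both of them catalytic beta subunits of its core. This was 18.2%, against 4.86% of all annotated eligible genes, and was not tested. Prosbeta1 (ALHF_02721.g1595) had scaled counts of 938 and 962 in ALHF, 839 in aabys and 1035 in CS (SD 0.13). Prosbeta2 (ALHF_02819.g1674) had 1573 and 1441 in ALHF, 1321 in aabys and 1726 in CS (SD 0.17). In both subunits aabys was the lowest library and CS the highest, with the ALHF libraries between them. The 11 eligible proteasome genes had a median SD of 0.36 and a highest SD of 0.54, below the median of 0.66 over all annotated eligible genes.

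Translation factors gave 3 of their 22 eligible genes (13.6%, against 4.86% of all annotated eligible genes, not tested). CG6412 (ALHF_02883.g1720), an elongation factor of the EF-Ts type that acts in mitochondria, had scaled counts of 597 and 583 in ALHF, 660 in aabys and 655 in CS (SD 0.091), so that both ALHF libraries lay below both susceptible strains. CG8636 (ALHF_02397.g1391), an RNA recognition protein of the initiation machinery, had 932 and 1068 in ALHF, 1055 in aabys and 1201 in CS (SD 0.15). It was also the only gene among the 24 eligible genes for RNA recognition and splicing that was chosen. CG7414 (ALHF_02999.g1810), the match of initiation factor eIF2A, had 2270 and 2058 in ALHF, 2841 in aabys and 2403 in CS (SD 0.20). The list was made by words in the annotation and also caught genes such as the transcription elongation factor TfIIS, and its median SD was 0.52.

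Vesicle traffic gave 2 of its 16 eligible genes (12.5%, against 4.86% of all annotated eligible genes, not tested). CG7967 (ALHF_02747.g1617) carries the Vta1 domain of a protein that acts with the ESCRT machinery in sorting membrane proteins for degradation, and had scaled counts of 395 and 379 in ALHF, 372 in aabys and 392 in CS (SD 0.040). The value of the tomosyn gene (ALHF_00486.g263), whose product restrains SNARE-driven secretion, was 708 and 692 in ALHF, 820 in aabys and 862 in CS (SD 0.16). In tomosyn the ALHF libraries lay below both susceptible strains, whereas the SD of CG7967 was under its counting SD of 0.079. Vps13 (ALHF_00630.g351) stood at place 203, just outside the choice, with an SD of 0.21.

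The lists of protein kinases and of phosphatases had shares of 3.23% and 3.70% of their eligible genes among the 200, near the 4.86% of all annotated eligible genes. The phosphatase list was made by words in the annotation and was not limited to enzymes that act on proteins, since it held Pglym78 and Aph-4, for example. The protein kinases gave 1 of 31 eligible genes, GckIII (ALHF_01607.g890), a germinal centre kinase with scaled counts of 1689 and 1505 in ALHF, 1465 in aabys and 1571 in CS (SD 0.090). Phosphatases gave 1 of 27, the protein-tyrosine phosphatase CG42327 (ALHF_01576.g869), with 365 and 409 in ALHF, 389 in aabys and 403 in CS (SD 0.072). Both susceptible strains lay between the ALHF libraries in CG42327, and CS did so in GckIII. The SD of CG42327 was under its counting SD of 0.078, so that its libraries cannot be ordered. A second gene, ALHF_10599.g5943, had the same length and the same 4 counts as CG42327.

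Most of the other annotated genes lay outside the rule by which genes were picked for naming and are given because of their annotation. Among those of cell structure and adhesion, betaInt-nu (ALHF_00142.g75), a beta chain of integrin that links the cell to the matrix, had scaled counts of 342 and 366 in ALHF, 359 in aabys and 365 in CS (SD 0.046) and fell under the rule as well, as did CG8486. Moe (ALHF_03028.g1834), which ties actin filaments to the membrane, had 4622 and 4114 in ALHF, 4665 in aabys and 4592 in CS (SD 0.085), rhea (ALHF_02253.g1305), the talin of the fly, had an SD of 0.20, and Sep2 (ALHF_02799.g1656), a septin, had an SD of 0.13. Proteins of membranes and channels included CG8486 (ALHF_02829.g1682), the match of the mechanosensitive channel Piezo, with 890 and 877 in ALHF, 930 in aabys and 827 in CS (SD 0.070). The sodium/hydrogen exchanger Nhe3 (ALHF_02990.g1802) had an SD of 0.20. Presenilin (Psn, ALHF_00764.g418), the catalytic part of gamma-secretase, had an SD of 0.11.

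Of the 13 genes annotated to metabolism, which at 5.44% of their class were near the 4.86% of all annotated eligible genes, 4 are given as examples, of which ATPCL was picked after its values were seen. CG33156 (ALHF_02579.g1509), an ATP-NAD kinase that makes NADP from NAD, had scaled counts of 471 and 441 in ALHF, 454 in aabys and 448 in CS (SD 0.042). ATPCL (ALHF_02276.g1323), the ATP citrate lyase that supplies acetyl-CoA for lipid synthesis, had 5604 and 6500 in ALHF, 5392 in aabys and 6230 in CS (SD 0.13). CG6767 (ALHF_02933.g1756), a ribose phosphate pyrophosphokinase of nucleotide synthesis, had 3313 and 3620 in ALHF, 3247 in aabys and 2779 in CS (SD 0.16). Jafrac1 (ALHF_02196.g1262), a peroxiredoxin, had 5044 and 4114 in ALHF, 4415 in aabys and 4986 in CS (SD 0.14). In ATPCL and Jafrac1 the difference between the ALHF replicates was larger than that between their mean and either susceptible strain.

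Several gene groups gave none of the 200. These were the mitochondrial ribosomal proteins (0 of 4 eligible genes), tRNA synthetases (0 of 8), chaperones (0 of 24), DEAD box helicases (0 of 3), mitochondrial carriers and respiration (0 of 16, median SD 1.08), vacuolar ATPase (0 of 4, of which VhaAC39-1 and VhaAC45 were also counted among the 16 because of words in their annotation), WD repeat proteins (0 of 21) and zinc finger proteins (0 of 30). Gene families that take part in the metabolism of insecticides gave none either: the cytochrome P450s 0 of 8 eligible genes with a median SD of 1.16, the glutathione S-transferases 0 of 2 and the carboxylesterases 0 of 1. Of the lists taken to stand for single tissues, the trypsins, many of them digestive enzymes of the gut, gave 0 of 7 (median SD 0.97). The cuticle list of the epidermis gave 0 of its 4 eligible genes, out of 19 annotated (median SD 1.04). It was made by words in the annotation. Its eligible genes matched Cht2, Cpr57A, CG14880 and Cht8, not all of them cuticle proteins. Most of these lists are short, and with 4.86% of all annotated eligible genes chosen a count of 0 in them says little.

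The 200 were taken from 3971 eligible genes. Of the 100 most abundant genes, which the rule left out, 40 (40.0%) had an SD no larger than the largest of the 200. These included 16 of the 23 cytosolic ribosomal protein genes among them. The only eligible genes of that list matched RpL24-like (ALHF_02425.g1408) and RpL7-like (ALHF_01797.g1008), which are named as relatives of ribosomal proteins, and with SDs of 0.54 and 0.85 they were not chosen.

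The genes often used as references were compared with the 200 in turn. RpS3 (ALHF_00295.g144) had an SD of 0.11, RpL13 (ALHF_00535.g300) of 0.16 and RpL8 (ALHF_01825.g1027) of 0.17, all within the range of the 200 genes, although their abundance kept them out of the choice. RpS3, the steadiest of them, had a level of 2314 and 2438 ppm in ALHF, 3597 in aabys and 4114 in CS, and scaled counts of 13338 and 13976 in ALHF, 15331 in aabys and 15539 in CS. Both ALHF libraries lay below both susceptible strains. RpS18 (ALHF_01871.g1055), RpLP0 (ALHF_01429.g784) and the elongation factor Ef1alpha48D (ALHF_01761.g987) had SDs of 0.21, 0.23 and 0.28. The 14-3-3epsilon gene (ALHF_00435.g230) and eIF-1A (ALHF_01936.g1094) were eligible and stood at places 557 and 658 of 3971, with SDs of 0.32 and 0.35.

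SdhA (ALHF_01471.g806), the flavoprotein subunit of succinate dehydrogenase in the respiratory chain, stood at place 3106 with an SD of 1.07. Its scaled counts were 21750 and 14285 in ALHF, 6389 in aabys and 4286 in CS, so that ALHF was the higher in each of its libraries. Its log2 ratio was 1.45 ± 0.48 (SE) against aabys and 2.08 ± 0.50 against CS in the edgeR quasi-likelihood test, with adjusted p-values of 0.27 and 0.071. The gene Tbp-1 (ALHF_02745.g1615), which the word match had also put in this list, is a regulatory subunit of the proteasome and not the TATA-box binding protein often used as a reference, and had an SD of 0.42.

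**Figure D2:**
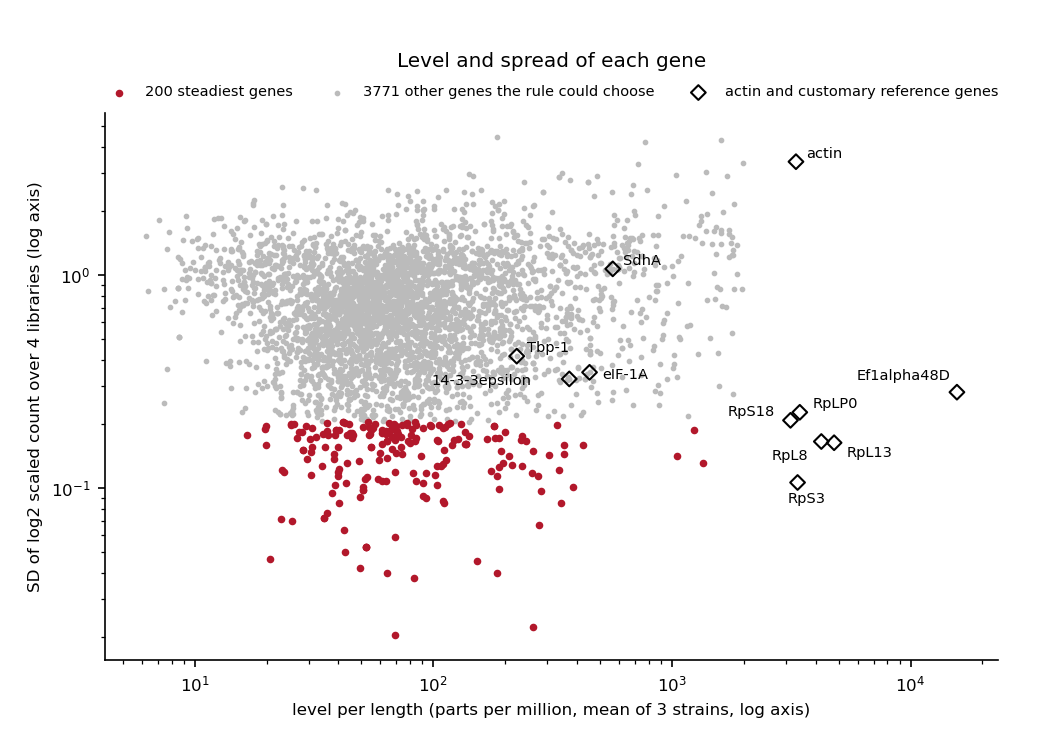
Level per length (x axis, ppm, mean of the 3 strains, log axis) against the SD of the log2 scaled count over the 4 libraries (y axis, log axis) for the 200 genes in red, the other eligible genes in grey, and actin with the customary reference genes as diamonds. The 200 genes run from 16.6 to 1355 ppm and the other eligible genes from 6.23 to 1987 ppm, and actin lies at an SD of 3.40.

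Actin (ALHF_04132.g2678) had 104486 and 37580 counts in ALHF, 6153 in aabys and 1603 in CS. Per length its level was 11542 and 7179 ppm in ALHF, 431 in aabys and 140 in CS. It took 1.03% and 0.680% of all counts in ALHF, 0.0408% in aabys and 0.0129% in CS. Its SD was 3.40, against a median of 0.16 and a highest SD of 0.20 in the 200 genes. The edgeR quasi-likelihood test gave log2 ratios of 4.83 ± 0.54 (SE) against aabys and 6.67 ± 0.60 against CS, with adjusted p-values of 0.14 and 0.063, so that neither passed 0.05 in a fit with 1 residual degree of freedom. Actins are a family of near-identical genes, and how the counting split reads between copies was not tested. Counts were made over the coding region of this gene, and the qRT-PCR amplicon itself was not measured here. The counts differ from the constant actin expression that the study reported from preliminary qRT-PCR, and the cause of this was not tested.

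Ratios between the 200 genes were also taken. Over the 19900 pairs of them, the SD of the log2 ratio of the members of a pair had a median of 0.20 and a highest value of 0.40. The SD of the log2 ratio of each gene to actin was between 3.22 and 3.58, with a median of 3.42. The pairwise values follow from the choice, since genes of small SD cannot differ much in their ratio, and they include pairs of identical values. The size factors cancel in each ratio, but the genes had been picked with them.

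Between strains, the log2 ratio of ALHF, the mean of its replicates, to aabys ran from -0.39 to 0.40 in the 200 genes with a median of 0.016. To CS it ran from -0.42 to 0.39 with a median of -0.046. None of the 200 was beyond 2-fold in either comparison, which the rule fixes, against 29.1% of the eligible genes in the comparison with aabys and 57.2% in that with CS. Both ALHF libraries lay above both susceptible strains in 30 of the 200 genes (15.0%), against 33.1% of the eligible genes. They lay below both in 37 (18.5%), against 35.2%. The rule keeps differences between libraries small, so that the shares in the 200 genes are a description of the choice. The edgeR quasi-likelihood test used the counts from which the 200 genes were chosen, so that nothing can be read from its calls among them. Over all 6070 genes tested it called 0.0% at an adjusted p under 0.05 in both comparisons. At an unadjusted p under 0.05 the counts were 1062 and 2558 genes. DESeq2 called 620 genes against aabys and 2005 against CS. The median standard error of the log2 ratio was 0.43 in both comparisons for the 200 genes, whose ratios in that fit ran from -0.44 to 0.36 for aabys and from -0.41 to 0.39 for CS.

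**Figure D3:**
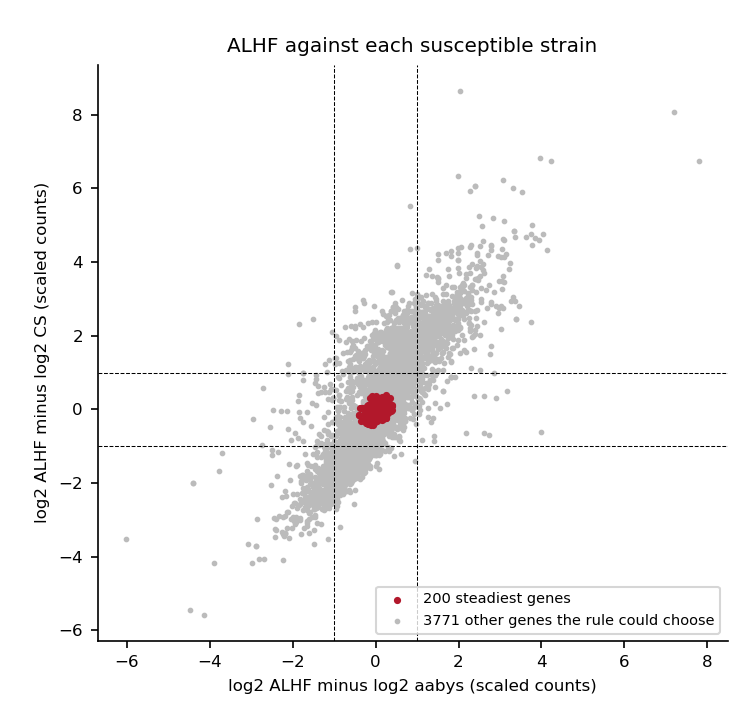
Log2 ratio of ALHF to aabys (x axis) and to CS (y axis) from scaled counts, for the 200 genes in red and the other eligible genes in grey, with dashed lines at 2-fold. The 200 genes lie between -0.42 and 0.40 on both axes.

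Single libraries were compared pair by pair. The rule keeps all of these differences small alike, so that the values of the 200 genes are a description of the choice. Replicate 1 of ALHF differed from aabys by a median absolute log2 difference of 0.154 in the 200 genes and 0.682 in the eligible genes, and from CS by 0.156 and 1.26. For replicate 2 of ALHF these were 0.177 and 0.628 against aabys, and 0.170 and 1.13 against CS. Between the ALHF replicates the medians were 0.146 in the 200 genes and 0.428 in the eligible genes, and between aabys and CS 0.185 and 0.659. In 67 of the 200 genes (33.5%) aabys lay between the ALHF replicates, and in 66 (33.0%) CS did, against 20.4% and 9.82% of the eligible genes.

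Even the largest departures within the 200 were small. ALHF_04906.g3334 was the gene with the highest ALHF replicate 1, at 0.28 above its mean on the log2 scale, and ALHF_11600.g6498 that with the lowest, at -0.27. For ALHF replicate 2 these were ALHF_04716.g3163 at 0.29 and ALHF_03826.g2426 at -0.27. ALHF_05940.g4025 was highest in aabys, at 0.30, with scaled counts of 385 and 385 in ALHF, 502 in aabys and 374 in CS. The lowest in aabys was ALHF_03381.g2091, with 734 and 724 in ALHF, 554 in aabys and 744 in CS. For CS these were Mhcl (ALHF_02345.g1359), an unconventional myosin, at 0.29 and ALHF_03905.g2495 at -0.29.

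The end of the list was set by a tie. ALHF_04167.g2710 and ALHF_11476.g6410, at places 199 and 200, and ALHF_11504.g6435, just outside, had the same coding length of 1185 nucleotides and the same 318 and 169 counts in ALHF, 542 in aabys and 683 in CS, so that the order of the rows decided which was taken. The SD was 0.2041 for these 3 genes and 0.2034 for ALHF_03381.g2091, the gene before them. The next genes outside were CG8331 (ALHF_00340.g173), at 0.2042, and Vps13, at 0.2055.

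Identical values were not limited to this tie. A total of 21 of the 200 genes shared their length and all 4 counts with another of the 200, in 1 set of 3 and 9 sets of 2, so that the list held 189 distinct profiles. Such genes made up 10.5% of the 200, against 6.17% of the eligible genes and 7.97% of the whole table. The set of 3 was ALHF_04266.g2792, ALHF_05039.g3429 and ALHF_11845.g6663, at places 10 to 12, each with 370 and 224 counts in ALHF, 766 in aabys and 683 in CS (SD 0.053). ALHF_01643.g916 and ALHF_01644.g917, both matched to Mo25, a scaffold protein that binds protein kinases, formed a set of 2 with an SD of 0.17. The members of a set may be copies of 1 coding region in the assembly and are not separate candidates.

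The only values that the choice did not use are those of a library left out of it. The rule was therefore applied to 3 libraries at a time, and the 200 genes so chosen were looked up in the fourth. The eligible genes were here those of the 3 libraries used, and could have under 100 counts in the library left out. They numbered 4016 without ALHF replicate 1, 4502 without ALHF replicate 2, 3989 without aabys and 4144 without CS. Without ALHF replicate 1, the chosen genes deviated from the mean of the other 3 libraries by a median of 0.29 on the log2 scale in that library, against 0.71 for the eligible genes. Without ALHF replicate 2 the medians were 0.32 and 0.59, and without aabys 0.26 and 0.35. In CS the chosen genes deviated by 0.50 and the eligible genes by 1.03. The chosen genes were thus closer to the other libraries than the eligible genes in each of the 4 cases, and the medians were closest together for aabys.

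In the library left out, 78.0% of the chosen genes stayed within 1.5-fold for ALHF replicate 1, against 43.0% of the genes eligible without it. For ALHF replicate 2 the shares were 71.0% and 49.6%, for aabys 84.0% and 71.2%, and for CS 55.0% and 27.4%. Beyond 2-fold were 16 and 15 of the 200 chosen genes for ALHF replicates 1 and 2, 6 for aabys and 35 for CS. The shares of the eligible genes beyond 2-fold were 34.2%, 25.5%, 11.3% and 51.9%. In each library left out, some of the chosen genes thus lay beyond 2-fold of the mean of the others. In CS, 126 of the 200 chosen genes lay above the mean of the others, and in aabys 65 did. The median deviation of the chosen genes was 0.19 in CS and -0.11 in aabys. For the other eligible genes it was -0.019 and -0.0054.

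**Figure D4:**
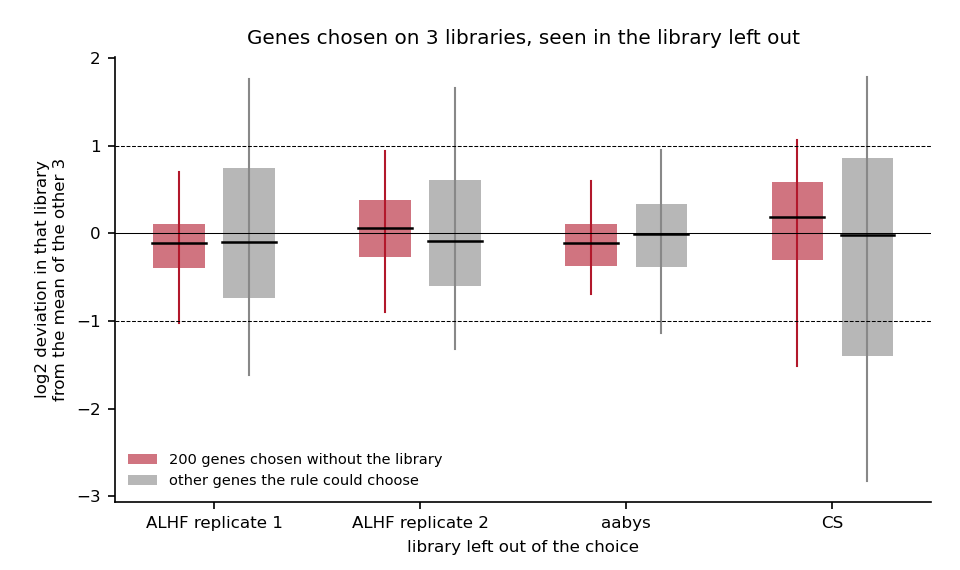
Log2 deviation, in the library left out, from the mean of the other 3 libraries (y axis), for the 200 genes chosen without that library in red and the other genes eligible without it in grey. Bars run from the 25th to the 75th percentile, black lines are medians, thin lines run from the 5th to the 95th percentile and dashed lines are at 2-fold. The spread of the chosen genes is widest in CS, where 35 genes lie beyond 2-fold.

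The list itself changed with the libraries. Of the 200 genes, 118 were chosen again without ALHF replicate 1, 106 without ALHF replicate 2, 127 without aabys and 79 without CS. A total of 49 genes were chosen whichever library was left out. A gene of very small SD over all libraries keeps a small SD when a library is left out. The return of the steadiest genes thus follows largely from the choice and is no separate evidence of steadiness. These 49 included all of the 20 steadiest, and among the annotated ones Moe, GckIII, CG5604, CG6412, CrebB-17A (ALHF_02911.g1739), which encodes a transcription factor of the CREB family, Prosbeta1, Stam (ALHF_02732.g1604), a protein of endosomal sorting, and ben. CrebB-17A had scaled counts of 319 and 296 in ALHF, 308 in aabys and 348 in CS (SD 0.10). Stam had 1332 and 1207 in ALHF, 1215 in aabys and 1460 in CS (SD 0.13).

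By level per length, the highest of the 200 was ALHF_04360.g2871, at 1355 ppm, with 16055 and 8888 counts in ALHF, 38733 in aabys and 28346 in CS (SD 0.13). It was followed by ALHF_05072.g3458 at 1238, with 2820 and 1768 counts in ALHF, 7169 in aabys and 7323 in CS (SD 0.19). Jafrac1 had 1045 ppm, CG6767 had 426 and CG9281 (ALHF_02249.g1302), annotated as an ABC transporter, had 384. CG9281 had scaled counts of 4902 and 5110 in ALHF, 5697 in aabys and 5553 in CS (SD 0.10), so that both ALHF libraries lay below both susceptible strains. The lowest were ALHF_08753.g5413 at 16.6 and ALHF_08870.g5454 at 19.7 ppm.

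Steadiness depended on what the counts were divided by. The 200 genes together took 1.96% and 2.10% of all counts in ALHF, 2.83% in aabys and 3.17% in CS, while the 100 most abundant genes took 30.4% and 31.1% in ALHF, 28.0% in aabys and 23.6% in CS. Divided by the total count alone, all 200 genes were lower in ALHF than in aabys and lower than in CS, with median log2 ratios of -0.45 and -0.65, and the eligible genes moved with them to medians of -0.49 and -0.67. With the trimmed mean of M values (TMM) of edgeR the medians were -0.028 and -0.040 and the median SD was 0.15. Divided by actin, the medians were -4.82 and -6.67 and all 200 genes were beyond 2-fold lower in ALHF in both comparisons. Without any scaling, the count was lowest in ALHF replicate 2, the shallowest library, in all 200 genes.

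**Figure D5:**
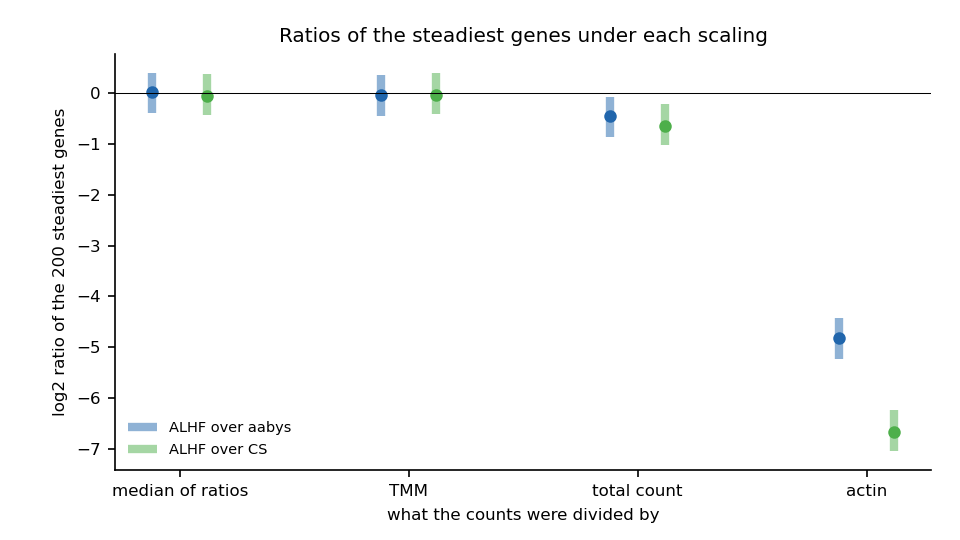
Log2 ratio of ALHF to aabys (blue) and to CS (green) for the 200 genes when counts were divided by the median-of-ratios size factor, the TMM size factor, the total count or the count of actin. Points are medians and bars run from the lowest to the highest gene; the medians for actin are -4.82 and -6.67.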

How the data were processed

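RNA-Seq libraries of whole adult female house flies were analysed, 2 of ALHF and 1 each of aabys and CS. Per the study's methods, ALHF reads were assembled de novo, coding regions were predicted, and RSEM (version not given in the sources used here) estimated expression against these regions in every library. The file header calls the values FPKM, but the authors deposited whole numbers whose sums differ between libraries and which rise with coding length (Spearman correlation across genes of 0.338 to 0.406), so they were taken as estimated counts, rounded, with no normalization. The deposited coding length served for the level per length, the count divided by length and scaled so that all genes sum to 1000000. No column of another sample was used.

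Scaling, choice and summaries were made in Python 3.11.15 (numpy 2.4.6, pandas 2.3.3). All 6070 genes that passed filterByExpr entered 1 fit of all libraries in edgeR 4.0.16 (R 4.3.3; TMM, quasi-likelihood test, strain as group, Benjamini-Hochberg adjustment over all genes tested, threshold 0.05). The spread in that fit came from the 2 ALHF libraries alone. DESeq2 1.42.0, other size factors, other count minimums, other measures of spread and leaving out each library were alternatives. Genes of identical values taken once, and the choice of genes after scaling to actin, were added after seeing the data. The rule and the fit were checked on simulated data.

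The 200 genes and the gene lists were chosen with earlier results of these data known. Genes named are the 20 of smallest SD, those at the threshold, the 5 highest and 2 lowest by level, the members of word-matched annotation lists, customary reference genes with actin, and the most deviating genes of each library. Other annotated genes were named after their values had been seen. The annotation at hand covered 1689 of the 6159 genes and was matched by gene name and coding length. The qRT-PCR was not analysed here.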

Additional observations from a re-analysis of the deposited data

How the results depend on the processing

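No paired analysis was made, since the labels pair no libraries across strains. Neither susceptible strain has a second library, so that the spread within it could not be estimated. Of the 200 genes, 186 were shared with TMM scaling, 190 with at least 50 counts, 153 with at least 200, 182 with at least 1, 163 with no exclusion of abundant genes, 182 with the range and 193 with the coefficient of variation in place of the SD, 189 with the values read as FPKM and, an alternative added after seeing the data, 184 with identical genes taken once. With the SD over 3 strain means 127 were shared, with total counts 29 and, also added after seeing the data, with scaling to actin 0. Leaving out a library shared between 79 (without CS) and 127 (without aabys). In each of 14 alternatives (not total counts, actin or other list sizes) 35 of the genes were chosen. The median SD of the 200 genes was 0.36 with total counts and 3.42 with actin. The median log2 ratio of ALHF to aabys was then -0.45 and -4.82, and to CS -0.65 and -6.67; with TMM it was -0.028 and -0.040. Each of the 20 steadiest genes had an SD of 0.27 to 0.38 with total counts. Across all genes, edgeR's quasi-likelihood test called 0 in both comparisons with TMM, 32 against aabys and 1015 against CS with DESeq2 size factors, and 22 and 1654 with total counts, and DESeq2 called 620 and 2005; the cause was not tested. Without a test, leaving out an ALHF library gave 1199 to 1336 eligible genes beyond 2-fold against aabys and 2215 to 2345 against CS. Choosing 100 or 400 genes changed the median deviation in a library left out by little (0.28 and 0.32 in ALHF replicate 1, 0.49 and 0.51 in CS). Depth limits the order of the 13 genes whose SD was at or under the counting SD.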
